A study of Mus musculus with 4 samples.

Results

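The GIMAP genes (GTPases of the immunity-associated protein family) were followed in stimulated CD4 T cells with and without the microRNA miR-146a. Members were the probe sets whose single gene symbol is Gimap1, Gimap3, Gimap4, Gimap5, Gimap6, Gimap7, Gimap8 or Gimap9, whatever their signal. They numbered 11 of 45037 probe sets and covered all 8 genes of the 18193 with a named probe set. Expression was measured on 4 Affymetrix Mouse Genome 430 2.0 arrays, 2 with RNA of wildtype and 2 with RNA of miR-146a-deficient cells. All cells were naive CD4 T cells sorted from 2D2 Tg mice, whose transgenic T cell receptor recognises a myelin peptide, and were grown for 3 days on plate-bound anti-CD3 (5 µg/ml) with anti-CD28 (1 µg/ml). The stimulus and the transgene were thus common to both genotypes, and no unstimulated cells were analysed here. The labels call the replicates biological. The mice's age, the deleted allele and whether replicates came from separate mice or cultures are not given in the sources used here, so the p-values measure only the spread between these samples.

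GIMAP proteins share a GTP-binding AIG1 domain, and most of their genes are read in lymphocytes. They are known for keeping mature T and B cells alive: rats that lack a working Gimap5 lose most of their T cells, and several family members bind proteins of the Bcl-2 family, which control mitochondrial cell death. The genes lie side by side in a single cluster. MiR-146a is a microRNA that restrains NF-kB signalling by binding messenger RNAs through its seed.

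The microRNA that names the genotype and the stretches upstream of Gimap5 and Gimap6 are shown here, since these genes hold the 2 GIMAP probe sets with the lowest differences from wildtype (for Gimap6 its dim probe set, not the brightest one that stands for the gene). No probe set is named for its gene, Mir146, so the deficiency was taken from the labels. All sequences come from RefSeq (GRCm38.p6), and each upstream stretch ends at the base before the gene's start. Capitals mark the seed (bases 2 to 8) in the microRNA and, in the DNA, each match to GGAAGT, a core of ETS factor sites, on either strand. Gimap5 is at chr6:48745947-48746196 on the plus strand and Gimap6 at chr6:48708245-48708494 on the minus strand.
mmu-miR-146a-5p: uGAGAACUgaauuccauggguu
Gimap5 upstream: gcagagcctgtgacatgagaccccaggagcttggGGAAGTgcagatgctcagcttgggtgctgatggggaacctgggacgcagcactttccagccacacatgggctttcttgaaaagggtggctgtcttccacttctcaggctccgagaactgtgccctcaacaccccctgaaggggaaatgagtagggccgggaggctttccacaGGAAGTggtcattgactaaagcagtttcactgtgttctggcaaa
Gimap6 upstream: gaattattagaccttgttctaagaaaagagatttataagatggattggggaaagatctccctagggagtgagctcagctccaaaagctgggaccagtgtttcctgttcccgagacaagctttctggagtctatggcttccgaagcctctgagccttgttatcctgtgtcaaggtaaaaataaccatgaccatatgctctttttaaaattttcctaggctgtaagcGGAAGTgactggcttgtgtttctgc
The Gimap5 stretch held 2 matches and the Gimap6 stretch 1, and the other 6 genes had none. Over all upstream windows of this length, 19.7% of 32851 held the motif. TGTGGT, a RUNX factor core, was found upstream of Gimap1, Gimap4 and Gimap7, against 14.0% of all windows. TGGGAA, an Ikaros core, and the NF-kB consensus were not matched in the 9 GIMAP windows, against 21.6% and 7.25% of all windows. Matches on both strands were counted, and these motifs were chosen after the values were seen. Seed matches of miR-146a in GIMAP messenger RNAs were not analysed here.

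All 8 GIMAP genes gave signals above the filter on dim probe sets on each of the 4 arrays, and 7 of the 8 had genotype differences between -0.10 and 0.09. Values are MAS5 signals, a linear brightness per probe set that the authors had scaled per array, and a gene is represented by its brightest probe set. Changes are differences of log2(signal + 14.7), deficient minus wildtype, ± SE. At a Benjamini-Hochberg adjusted p of 0.05, limma's moderated test called no GIMAP gene, against 0.179% of the 12821 genes tested (22 higher, or 0.172%, and 1 lower, or 0.0078%). The median GIMAP difference was 0.01, against -0.01 over all tested genes. Gimap5 had the largest difference of the 8, at -0.38, and was the 1 gene with an unadjusted p below 0.05, a level reached by 5.26% of all tested genes. Without the intensity trend limma called 0 of the 12821 genes, with 769 at an unadjusted p below 0.05.

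Gimap5, the member whose loss causes lymphopenia, read 349 and 350 in wildtype and 275 and 257 in deficient arrays. Both deficient arrays lay below both wildtype arrays, which agreed closely with each other. Mean signals were 349.6 ± 0.32 and 266 ± 12 (SD, n = 2 each), 1.31-fold lower in the deficient cells. The log2 difference was -0.38 ± 0.16 with a 95% interval from -0.73 to -0.02, and it did not pass limma's moderated test over all genes (unadjusted p = 0.0420, adjusted p = 0.920). Gimap5 has 1 probe set on the array, so no other probe set bears on the value. With each array left out in turn the difference stayed between -0.42 and -0.33, with adjusted p from 0.855 to 0.964 over those fits. The control probe sets at the 3' and 5' ends of transcripts, whose ratio reflects RNA integrity, gave lower ratios in the deficient arrays for 2 of 3 transcripts. The ratios were 2.40 and 2.74 in wildtype against 1.92 and 2.23 in deficient arrays for the transferrin receptor. Gapdh had 0.778 and 0.808 against 0.746 and 0.778. Its separation was marginal, with 0.7783 in wildtype replicate 1 against 0.7781 in deficient replicate 2. For beta-actin the genotypes overlapped, at 1.17 and 1.30 against 1.14 and 1.25. Their part in the Gimap5 reading was not tested.

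Gimap3, a close paralogue of Gimap5 likewise tied to T cell survival, read 1760 and 2260 in wildtype and 1658 and 2094 in deficient arrays. The genotypes overlapped, and the replicates of each lay further apart than the genotype means. Its difference was -0.10 ± 0.15, with an interval from -0.45 to 0.25. Without wildtype replicate 2 or deficient replicate 1 its sign turned (0.08 and 0.07). Whether Gimap3 and Gimap5 differ in their response was not tested.

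**Figure D1:**
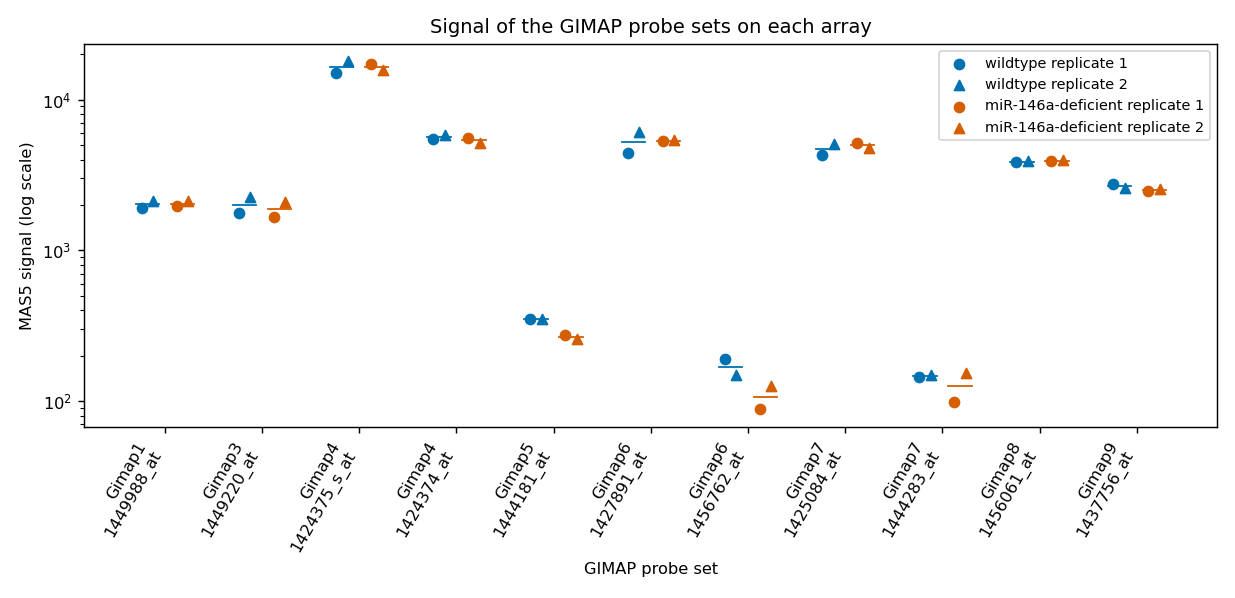
MAS5 signal (vertical, log scale) of the 11 GIMAP probe sets on the 4 arrays; blue marks wildtype, orange miR-146a-deficient, circles replicate 1 and triangles replicate 2, and short lines are group means. Gimap5 lies at 349 and 350 in wildtype against 275 and 257 in deficient arrays, while the genotypes overlap for both Gimap4 probe sets.

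Gimap1, which mature T and B lymphocytes need for survival, read 1917 and 2117 in wildtype and 1959 and 2125 in deficient arrays. The genotypes overlapped, and the difference was 0.02 ± 0.11. Gimap4, a family member linked to the pace of T cell death, has a pair of probe sets. The suffix of the brighter, 1424375_s_at, marks probes that can match several transcripts. It read 15101 and 17929 in wildtype and 17350 and 15748 in deficient arrays. The deficient values fell inside the wildtype range, and the difference was 0.01 ± 0.11. The other, 1424374_at, read 5436 and 5814 against 5581 and 5138, a difference of -0.07 ± 0.10 in the fit over probe sets. Both Gimap4 readings thus had intervals that span 0, from -0.23 to 0.25 for the gene and from -0.29 to 0.15 for the second probe set.

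Gimap8, the longest protein of the family with several GTPase domains, varied least. It read 3827 and 3908 in wildtype and 3889 and 3955 in deficient arrays, so that the highest array was 1.03 times the lowest. The difference was 0.02 ± 0.09. Gimap9 read 2738 and 2594 against 2457 and 2557. Both deficient arrays lay below both wildtype arrays, by a small margin, and the difference was -0.09 ± 0.10 (adjusted p = 0.976 by limma's moderated test). Gimap5 and Gimap9 were the 2 of 8 genes with the deficient arrays wholly below the wildtype arrays, and none had them wholly above, against 17.7% and 15.9% of all tested genes.

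Gimap6 and Gimap7 each have a bright and a dim probe set, and these did not read alike. Gimap6 binds an autophagy protein of the GABARAP family. Its bright probe set, 1427891_at, read 4416 and 6126 in wildtype and 5315 and 5376 in deficient arrays. The wildtype arrays bracketed the deficient ones, and the difference was 0.04 ± 0.14. Its dim probe set, 1456762_at, read 189 and 148 in wildtype and 87.9 and 126 in deficient arrays. Here the deficient arrays lay below the wildtype arrays, by -0.60 ± 0.25 with an interval from -1.17 to -0.03, and limma's moderated test over all probe sets was not passed (unadjusted p = 0.0425, adjusted p = 0.906). With each array left out in turn this reading ran from -0.83 to -0.37.

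Gimap7, whose GTPase activity rises when the protein pairs with itself, read 4279 and 5087 in wildtype and 5163 and 4797 in deficient arrays on its bright probe set, 1425084_at. This was the highest difference of the family, at 0.09 ± 0.11, and the genotypes overlapped. Its dim probe set, 1444283_at, read 145 and 149 in wildtype and 97.8 and 154 in deficient arrays. Deficient replicate 1 stood low and deficient replicate 2 lay above both wildtype arrays, and the difference was -0.23 ± 0.25. With the mean of a gene's probe sets in place of the brightest, Gimap6 had -0.28 and Gimap7 -0.07, both with reversed sign and neither past the threshold. In that setting the median of the 8 genes was -0.08, against -0.03 over all tested genes.

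**Figure D2:**
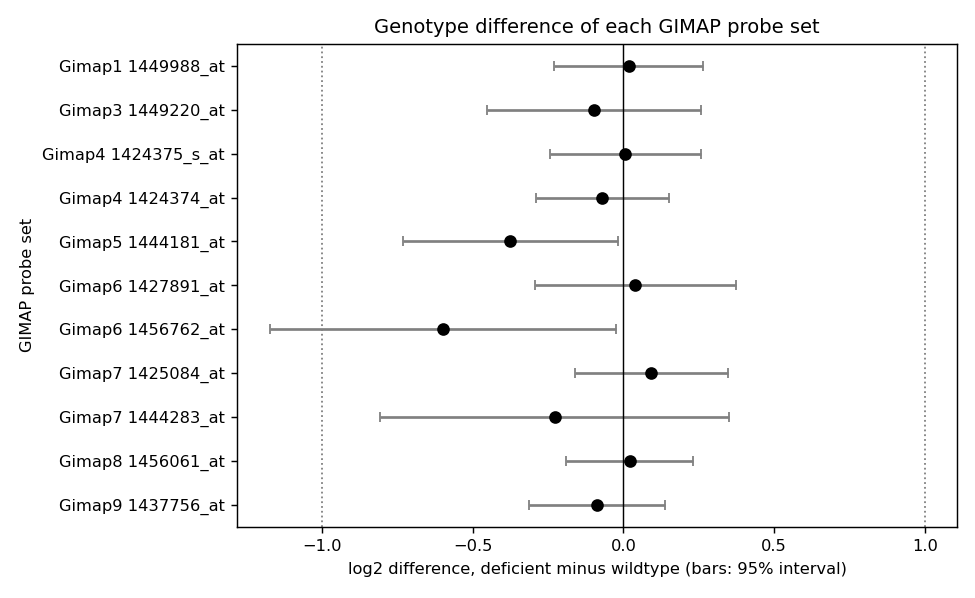
Log2 difference, deficient minus wildtype, of each GIMAP probe set (points) with its 95% interval from the fit over all probe sets (bars); dotted lines mark a 2-fold change of the transformed signal. The intervals of Gimap5 (-0.73 to -0.02) and of Gimap6 1456762_at (-1.17 to -0.03) lie below 0, and the other 9 span 0.

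Across the probe sets, 0 of 11 passed the adjusted threshold, against 0.167% of the 27022 tested (0.148% higher and 0.0185% lower), and 2 had an unadjusted p below 0.05, against 5.45% of all. The deficient arrays lay wholly below the wildtype arrays in 3 of 11 and wholly above in 0, against 20.0% and 14.2% of all tested probe sets. Differences were above 0 in 5 and below 0 in 6, with a median of -0.07 against -0.03 for all tested probe sets. All 11 had passed the filter on dim probe sets.

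The intervals show how large a genotype difference these arrays leave room for. For 8 of 8 GIMAP genes the 95% interval lay within 1 log2 unit either way, a 2-fold change of the transformed signal, against 79.6% of all tested genes. For 7 of 8, all but Gimap5, it lay within 0.5 either way, against 48.9%. Among the 11 probe sets, 10 lay within 1 and 8 within 0.5, against 74.9% and 36.7% of all tested probe sets, the exception at 1 being Gimap6 1456762_at. The SE of a GIMAP gene was 0.11 in the median, against 0.16 over all tested genes, and these genes are bright, where the fit assigns a smaller spread. The 2 arrays per genotype limit every interval.

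**Figure D3:**
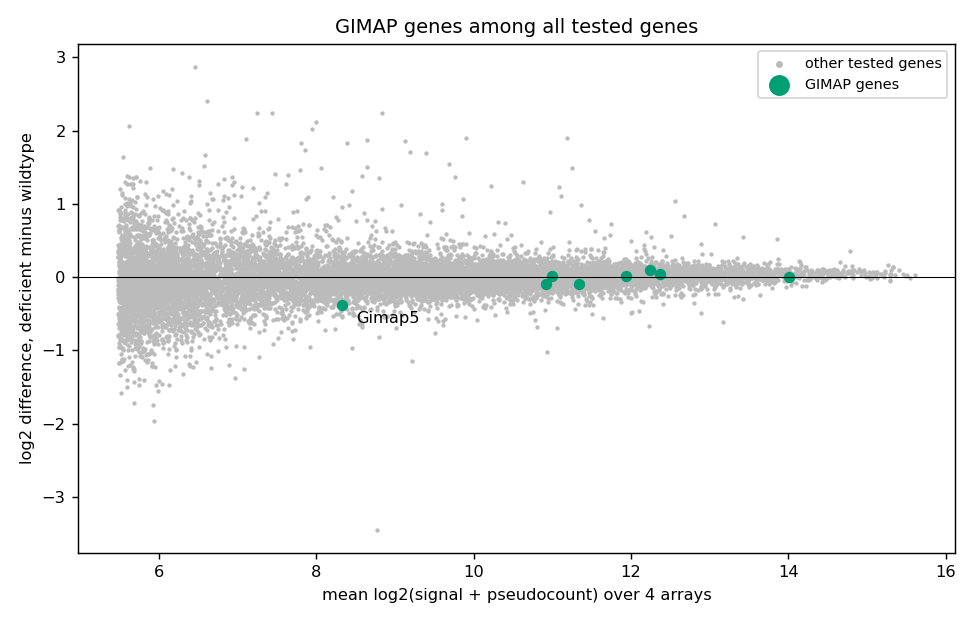
Log2 difference, deficient minus wildtype (vertical), against mean log2(signal + 14.7) over the 4 arrays (horizontal) for the 12821 tested genes (grey) and the 8 GIMAP genes (green). The GIMAP genes lie close to 0, between -0.10 and 0.09, apart from Gimap5 at -0.38.

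Single arrays of a genotype lay further apart than the genotype means, as differences of single arrays do when nothing else changes. The median size of the log2 difference between the wildtype arrays was 0.19 over the 8 genes and between the deficient arrays 0.10, while the genotype difference had a median size of 0.06. Over all tested genes these were 0.17, 0.17 and 0.12. Wildtype replicate 2 read above wildtype replicate 1 in 7 of 8 GIMAP genes, Gimap9 being the exception, against 50.8% of all tested genes, dim and bright alike. This order was not particular to the family. Summed signals in wildtype replicates 1 and 2 were 2.126e+07 and 2.205e+07 over all tested genes and 65949 and 76191 for T cell markers. Some lists went the other way, such as the interferon-induced GTPases (21957 and 19994) and the endothelial markers (813 and 647). Wildtype replicate 1 was the lowest of the 4 arrays for 5 of the 8 genes, and wildtype replicate 2 the highest for 4. The family's median difference accordingly depended on the wildtype array used. It was -0.09 without wildtype replicate 1 and 0.09 without wildtype replicate 2, and no GIMAP gene passed in either case.

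The 3 tested genes whose centred log2 values over the 4 arrays lay closest to the mean GIMAP profile were Abcb1a, Emc3 and Plk3, with root mean square differences of 0.0048, 0.0048 and 0.0053. Within the family this measure ran from 0.048 for Gimap1 to 0.180 for Gimap5. With 4 arrays and a nearly flat profile the likeness is a description only.

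In gene order (GRCm38.p6) the family runs Gimap8, Gimap9, Gimap4, Gimap6, Gimap7, Gimap1, Gimap5, Gimap3, with no other gene of a named probe set between them. Gimap6 and Gimap3 are on the minus strand and the others on the plus strand. The 5 genes before Gimap8 (Lrrc61, Rarres2, Repin1, Zfp775 and AI854703) had differences from -0.16 to 0.10. Next after Gimap3 came Tmem176b and Tmem176a, membrane proteins found in dendritic cells and some T cells, with higher readings in the deficient arrays. Tmem176b read 92.0 and 133 in wildtype and 244 and 342 in deficient arrays, a difference of 1.27 ± 0.25. Tmem176a read 53.8 and 102 against 170 and 187, a difference of 1.11 ± 0.30. Neither passed limma's moderated test over all genes (adjusted p = 0.171 and 0.478), but without wildtype replicate 2 both did (adjusted p = 0.00447 and 0.0260), as did Tmem176b after median centring of the arrays (adjusted p = 0.0406). Adjusted p over the alternatives ran from 0.00447 to 0.662 for Tmem176b and from 0.0260 to 0.794 for Tmem176a. Beyond the Tmem176 pair lay Aoc1, Doxl1 and Gpnmb. They differed by 0.91 ± 0.56, -0.48 ± 0.50 and -0.23 ± 0.39, with intervals that span 0. Of the 10 neighbours, 0 passed and 2 had an unadjusted p below 0.05, against 0.179% and 5.26% of all tested genes. Whether the Tmem176 pair differs from the adjacent GIMAP genes was not tested.

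**Figure D4:**
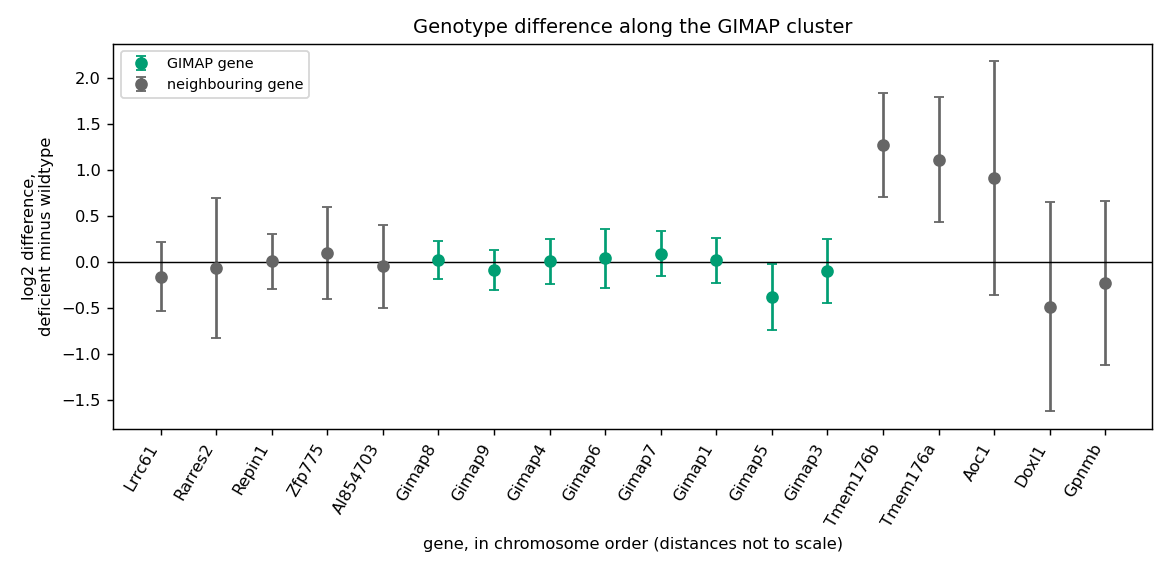
Log2 difference, deficient minus wildtype, with 95% intervals (bars) for the GIMAP genes (green) and the 5 nearest genes with a named probe set on each side (grey), in chromosome order without distances. The GIMAP genes lie between -0.38 and 0.09, and Tmem176b and Tmem176a lie at 1.27 and 1.11.

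Genes listed as GIMAP partners or for lymphocyte survival had differences from -0.11 to 0.43, with 8 higher and 3 lower in the deficient cells. The list held Bcl-2 family members, the GABARAP proteins of autophagy, Gsk3b and Hspa8, and 11 of its 12 genes were tested. None passed in either direction, and 1 had an unadjusted p below 0.05, against 0.179% and 5.26% of all tested genes. The median difference was 0.09, against -0.01 over all tested genes, and the deficient arrays lay wholly above the wildtype arrays in 4 and wholly below in 0, against 15.9% and 17.7% of all tested genes. Bcl2l11, which encodes the death-promoting protein Bim, read 330 and 376 in wildtype and 526 and 439 in deficient arrays. Both deficient arrays were higher, but the 0.43 ± 0.16 between them was short of the threshold (adjusted p = 0.835), and with the mean of its probe sets the difference was 0.02. Hspa8, a chaperone that was reported to bind Gimap5, differed by 0.16 ± 0.09 on its brightest probe set and by -0.16 with the mean of its probe sets, and by 0.074 without wildtype replicate 1. Bak1, a pore-forming protein of mitochondrial death, differed by 0.19 ± 0.14, by 0.066 without deficient replicate 1 and by 0.32 without deficient replicate 2. Bcl2 itself, the survival factor, read 4026 and 4839 against 4285 and 3915, and the genotypes overlapped.

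Of the genes of naive and quiescent T cells none passed. Of 12 listed, 10 were tested, with a median of -0.03. Of these, 0 passed and 0 had an unadjusted p below 0.05, against 0.179% and 5.26% of all tested genes. The homing receptor gene Ccr7 and the transcription factor genes Lef1 and Klf2 ranked first by p and differed by 0.25 ± 0.12, -0.22 ± 0.12 and 0.26 ± 0.25. Single arrays moved these values: Ccr7 ran from 0.12 without deficient replicate 2 to 0.38 without deficient replicate 1, Lef1 from -0.36 to -0.089 and Klf2 from 0.39 to 0.13 without the same arrays. Ccr7 was also 0.15 without wildtype replicate 1 and Lef1 -0.15 without wildtype replicate 2. The interferon-induced GTPases, a separate family of immune GTPases, were given for comparison. Of 15 listed, 9 were tested, 1 rose and 0 fell, with a median of 0.51 and the deficient arrays wholly above the wildtype arrays in 8. Of all tested genes 0.172% rose and 15.9% lay wholly above. Gbp2, which acts against intracellular pathogens, was the gene that rose, by 1.11 ± 0.10 (adjusted p = 0.00692), and it missed the threshold without the filter (adjusted p = 0.0700) and without the intensity trend (adjusted p = 0.421). Gbp7 and Iigp1 differed by 0.74 and 0.99 and were not called (adjusted p = 0.0911 and 0.0925). After median centring both were (adjusted p = 0.0406 and 0.0100). Without wildtype replicate 1 they had adjusted p of 0.00892 and 0.000852, without wildtype replicate 2 of 0.0277 and 0.0384, without deficient replicate 1 of 0.0353 and 0.177, and without deficient replicate 2 of 0.311 and 0.0867. Among all alternatives the largest were 0.548 and 0.523.

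The label of the cells was checked against markers. All 11 T cell markers with a named probe set passed the filter, with Cd3e at 2349 and 2406 in wildtype and 2254 and 2652 in deficient arrays and Cd4 at 605 and 655 against 462 and 725. None was called, against 0.179% of all tested genes, and their median difference was 0.05. The summed signal of these markers was 65949 and 76191 in wildtype and 69309 and 74756 in deficient arrays. Wildtype replicate 1 was lowest, as for most GIMAP genes. It was also lowest in the sum over all tested genes, at 2.126e+07 and 2.205e+07 in wildtype and 2.213e+07 and 2.185e+07 in deficient arrays. Cd8b1, of the CD8 and NK cell list, also passed the filter. It read 707 and 767 in wildtype and 644 and 888 in deficient arrays. Signals of different probe sets do not give relative amounts, so these readings cannot settle the CD4 label.

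GIMAP genes are also read in B cells and in endothelial cells, and B cell markers were higher in the deficient arrays. Of 12 tested B cell markers 4 rose, Ms4a1, Blnk, Cd22 and Igk, and 12 of 12 had the deficient arrays wholly above the wildtype arrays, with a median difference of 1.48, against 0.172% called higher and 15.9% wholly above among all tested genes. Their summed signal was 5205 and 7579 in wildtype and 14514 and 15119 in deficient arrays. The calls of Cd22 and Igk were lost when deficient replicate 2 was left out (adjusted p = 0.0838 and 0.0940), with the replicate number as a block (adjusted p = 0.0526 and 0.0579) and when probe sets were averaged (adjusted p = 0.385 and 0.696). Without the filter all 4 calls were lost (adjusted p = 0.0842 for Ms4a1 and Blnk and 0.283 for Cd22 and Igk), as they were without the intensity trend (adjusted p from 0.414 to 0.439). Pax5, a defining B cell factor, did not pass the filter. The part of these cells' RNA in the GIMAP readings was not tested. In bulk RNA, more cells of a type cannot be told apart from more RNA per cell. Endothelial markers gave 0 called of 6 tested, with summed signals of 813 and 647 in wildtype and 720 and 608 in deficient arrays, and Tek, Tie1, Emcn and Vwf did not pass the filter. Pecam1, Cdh5, Kdr, Esam, Cldn5 and Egfl7 passed it, with Pecam1 at 126 and 97.4 in wildtype and 157 and 82.8 in deficient arrays and Kdr between 81.3 and 96.1. Dendritic and macrophage markers gave 1 called of 8 (Cybb, higher), with summed signals from 5320 to 6268 in wildtype and from 5036 to 6057 in deficient arrays. Most of that sum is Batf3, a factor also read in activated T cells. Without it, a sum added after the values were seen, it was 642 and 634 in wildtype and 776 and 885 in deficient arrays. That sum includes Cybb, at 53.6 and 56.8 in wildtype and 285 and 352 in deficient arrays. Of the 7 markers without Batf3, 5 were lower and 2 higher in the deficient arrays, with a median of -0.18. The deficient arrays lay wholly below in 3 and wholly above in 1, against 17.7% and 15.9% of all tested genes. The Cybb call was lost without the filter, without the trend and when its probe sets were averaged (adjusted p from 0.148 to 0.414 in these). CD8 and NK cell markers gave 0 of 7, with a median difference of 0.63. All 7 were higher in the deficient arrays, which lay wholly above the wildtype arrays in 5, against 15.9% of all tested genes. By limma's moderated test 3 had an unadjusted p below 0.05, against 5.26%. Summed signals ran from 2951 to 3241 in wildtype and from 3854 to 4541 in deficient arrays. Gzma, the brightest of them, read 1522 and 1771 in wildtype and 2755 and 1428 in deficient arrays, and the genotypes overlapped. Erythroid and platelet markers had 1 tested gene of 6 listed, which did not pass.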

How the data were processed

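RNA of 4 samples, 2 per genotype, was measured on arrays from 100 ng of total RNA each, per the labels. The deposited table gives intensity on a linear scale, 1 value per array for each probe set; MAS5 and the Transcriptome Analysis Console are listed in the submitters' processing notes, without versions. In the deposited table each array has a 2% trimmed mean of 500, and median signals ran from 48.6 to 57.7. Detection calls were not used here. Of 45101 probe sets, 64 controls were left out. Of the rest, 34945 had 1 gene symbol in the platform annotation, 932 several and 9160 none; gene IDs of 34741 were found in GRCm38.p6, used for names, gene order and upstream sequences, and 0 symbols changed.

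Signals were taken as log2(signal + 14.7), the 25th percentile of all values being added, which understates the changes of dim probe sets. Probe sets were tested if their mean log2 reached the 40th percentile (a signal of 29.9). Genes were fitted by their brightest probe set, and probe sets were fitted separately. Limma 3.58.1 in R 4.3.3 (lmFit, eBayes with an intensity trend; 8.60 degrees of freedom, 2 from the arrays) gave two-sided p-values with Benjamini-Hochberg adjustment over all features and a threshold of 0.05. The fit was tested on simulated data. Named were all GIMAP probe sets, 5 neighbours on each side, and the 3 genes with the closest profile. List members that passed or had the 3 smallest p, and markers that passed, were also named. Bcl2, Cd3e, Cd4, Cd8b1, Gzma, Batf3, endothelial markers and markers below the filter were added after their values were seen. The members and lists were chosen with earlier results of these data known. Python 3.11.15 with matplotlib 3.10.9 drew the figures.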

Additional observations from a re-analysis of the deposited data

How the results depend on the processing

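No GIMAP gene or probe set passed under any of 14 alternatives for genes and 13 for probe sets: the smallest adjusted p for a gene was 0.579 and for a probe set 0.570, both without wildtype replicate 2. The median of the GIMAP genes ran from -0.09 to 0.10 over 12 alternatives. Its shifts were within 1 SD of its spread between replicates, which is no measure of stability here. That SD comes mostly from the gap between the wildtype arrays, which also sets the shift when 1 of them is left out. Gimap5 kept its sign in 14 of 14, from -0.42 to -0.29, and Gimap9 in 14 of 14. Of 112 values of the 8 genes under alternatives, 13 changed sign. The filter, trend, block and threshold settings cannot change a difference, and averaging probe sets cannot for a gene with 1 probe set. Values under those settings thus kept their sign by construction, also for Gimap5 and Gimap9. Gimap4 had -0.0021 and Gimap8 -0.0049 after quantile normalization. With the mean of probe sets Gimap4, Gimap6 and Gimap7 had -0.032, -0.28 and -0.068, and Hspa8 had -0.16. Leaving out each array in turn gave -0.12 to 0.13 for Gimap4, -0.20 to 0.27 for Gimap6, -0.032 to 0.22 for Gimap7, -0.053 to 0.090 for Gimap1, -0.28 to 0.082 for Gimap3 and -0.52 to 0.064 for Gimap7 1444283_at. The lowest values of Gimap4, Gimap6, Gimap7, Gimap1 and Gimap3 came without wildtype replicate 1 and the highest without wildtype replicate 2. After median centring Gimap4 1424374_at had 0.013.

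Over all features, 23 genes and 45 probe sets passed. These counts were 2 and 4 without a filter, 51 and 88 after median centring, and 0 and 0 without the intensity trend. At an adjusted p of 0.10, 40 genes passed, and with the mean of probe sets 14. Leaving out each array gave 27 to 99 genes and 29 to 140 probe sets; it leaves 1 array in a genotype, whose spread is then assumed to equal that of the other. The replicate number as a block gave 14 genes and 71 probe sets and called no GIMAP gene; deviations of arrays with the same number correlated at 0.050 over 12821 genes, and with 2 pairs they share only a number. The causes of these shifts were not tested. Of the GIMAP probe sets, the dim Gimap6 1456762_at and Gimap7 1444283_at had the largest SE, 0.25 for both. The cause of their size was not tested.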
